A study of Mus musculus with 17 samples.

Results

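The genes described here are 32 genes of mature, fast skeletal muscle: the contractile filaments, the Z-disc and its anchors, calcium handling and energy supply. They were chosen by name, as the rows of the deposited expression table that carry these symbols, and the naming rule uses no measured value. The names were chosen with earlier results of these data known. The names matched 33 of the 34140 rows of the table, because Aldoa stands under 2 identifiers. The table covers 17 sequencing libraries of skin from C57/BL6j mice. All libraries share that strain and tissue, and no transgene or other allele is named in the labels. The 9 control libraries were made at 0 days (2 libraries), 3 days (2), 6 days (2) and 9 days (3), and the 8 irradiated (IR) libraries at 3 days (3), 6 days (2) and 9 days (3). Days 3, 6 and 9 count from an injury, and the purpose given for the series is to find molecules active in the healing of wounds after ionizing radiation. The labels give no radiation dose or timing, no age or sex of the mice and no state of the skin at day 0. The labels do not say that the libraries of a group came from separate animals, so the p-values measure only the spread between these samples, which may be technical.

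Mouse skin carries a thin sheet of striated muscle, the panniculus carnosus, beneath the dermis and its fat, so skin RNA holds muscle transcripts. In a muscle fibre, myosin thick filaments pull on actin thin filaments, titin and the Z-disc hold both in register, and troponin lets the pull begin when calcium is released from the sarcoplasmic reticulum. Fast fibres are known for their own myosin heavy chains, fast troponins, the calcium buffer parvalbumin and a high capacity for glycolysis. In these bulk samples, fewer muscle fibres and less muscle RNA per fibre cannot be told apart.

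The upstream sequences of 4 genes on which the results turn are shown first, as examples. All 4 fell against day 0, as nearly the whole set did, so the fall does not single them out. Acta1 had the highest level, Myh4 encodes the fastest myosin, Mybpc2 was the gene called between irradiated and control skin, and Pvalb fell most at days 3 and 6. Each sequence is the 250 bases before an annotated start, 5′ to 3′ on the gene's strand, from RefSeq for GRCm38.p6. The positions are chr8:123894776-123895025 (minus strand) for Acta1, chr11:67237562-67237811 (plus) for Myh4, chr7:44524670-44524919 (minus) for Mybpc2 and chr15:78206401-78206650 (minus) for Pvalb, which has another annotated start. Capitals mark matches, on either strand, to the E-box CANNTG (the site of MyoD-family factors), the MEF2 site, the CArG box (the site of serum response factor) and the MCAT element CATTCC (the site of TEAD factors).
Acta1: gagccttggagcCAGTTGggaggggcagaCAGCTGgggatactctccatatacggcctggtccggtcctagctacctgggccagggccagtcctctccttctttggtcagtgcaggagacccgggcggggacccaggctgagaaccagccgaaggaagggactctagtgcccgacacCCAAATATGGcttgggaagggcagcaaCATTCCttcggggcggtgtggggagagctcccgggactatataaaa
Myh4: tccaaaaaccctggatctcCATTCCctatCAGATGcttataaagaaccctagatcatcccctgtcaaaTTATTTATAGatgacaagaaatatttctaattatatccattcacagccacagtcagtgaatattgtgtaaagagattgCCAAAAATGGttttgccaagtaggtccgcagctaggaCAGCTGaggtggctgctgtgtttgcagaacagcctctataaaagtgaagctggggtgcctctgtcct
Mybpc2: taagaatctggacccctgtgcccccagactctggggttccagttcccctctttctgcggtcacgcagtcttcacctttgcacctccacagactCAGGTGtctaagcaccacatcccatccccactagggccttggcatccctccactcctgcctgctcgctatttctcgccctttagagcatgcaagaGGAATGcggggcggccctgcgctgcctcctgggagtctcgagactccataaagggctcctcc
Pvalb: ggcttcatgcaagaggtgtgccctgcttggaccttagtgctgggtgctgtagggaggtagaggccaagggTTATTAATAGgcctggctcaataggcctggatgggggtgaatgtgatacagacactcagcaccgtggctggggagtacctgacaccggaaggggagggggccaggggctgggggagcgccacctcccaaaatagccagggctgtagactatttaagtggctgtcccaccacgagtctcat

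The Acta1 sequence holds 2 E-boxes, a CArG box that begins 73 bases before the start and an MCAT element 46 bases before it. Myh4 holds 2 E-boxes, a MEF2 site 182 bases and a CArG box 104 bases before the start, and an MCAT element 231 bases before it. Mybpc2 holds an E-box and an MCAT element, and the Pvalb sequence holds a MEF2 site 180 bases before its start and no E-box. That Pvalb start was picked for display because its window holds a MEF2 site, so the match is no finding. The window of the other Pvalb start (chr15:78204238-78204487) holds 1 E-box and no MEF2 site. RefSeq promoters matched 25 of the 32 names, with 31 starts. An E-box was found at 80.6% of the 31 starts and at 66.2% of all 32851 promoter windows of that length. The MEF2 site was found at 19.4% against 2.92%, the CArG box at 12.9% against 1.47%, and MCAT at 25.8% against 12.6%. These shares count starts, and starts of one gene can overlap. By gene, the MEF2 site was found for 6, the CArG box for 3 and MCAT for 8 of the 25. For the CArG box, Ldb3 was counted at overlapping windows. For comparison, the TATA sequence TATAAA was found at 12.9% against 12.4%. These are matches of letters in a short window and say nothing of binding in these samples.

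Expression is given as FPKM (fragments per exon length and sequencing depth), so levels can be compared between genes. The libraries held 25440773 to 30797409 assigned fragments, recovered from the FPKM values. At this depth the 31 well-measured genes had at least 158 fragments in every library, the lowest being Ckmt2. Muscle genes together held 7.93% and 7.28% of all FPKM at day 0, and 0.629% to 2.002% in the remaining 15 libraries. Markers of other striated muscle were mixed. The slow myosin gene Myh7 reached at most 0.0513 FPKM and the cardiac myosin gene Myh6 at most 0.0681 FPKM, but the 10 slow-twitch genes summed to 66.1 to 200.2 FPKM over the libraries, with Atp2a2 at up to 63.7, Tnnc1 at up to 54.7 and Casq2 at up to 42.3 FPKM. The 6 heart muscle genes summed to 8.07 to 135 FPKM, most of it Actc1 (4.48 to 124 FPKM), an actin that developing skeletal muscle also makes. Their part in the muscle results was not tested. Mitochondrially encoded genes stood apart at day 0 as well, with shares of 31.8% and 21.7% against 8.33% to 12.6% later.

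**Figure D1:**
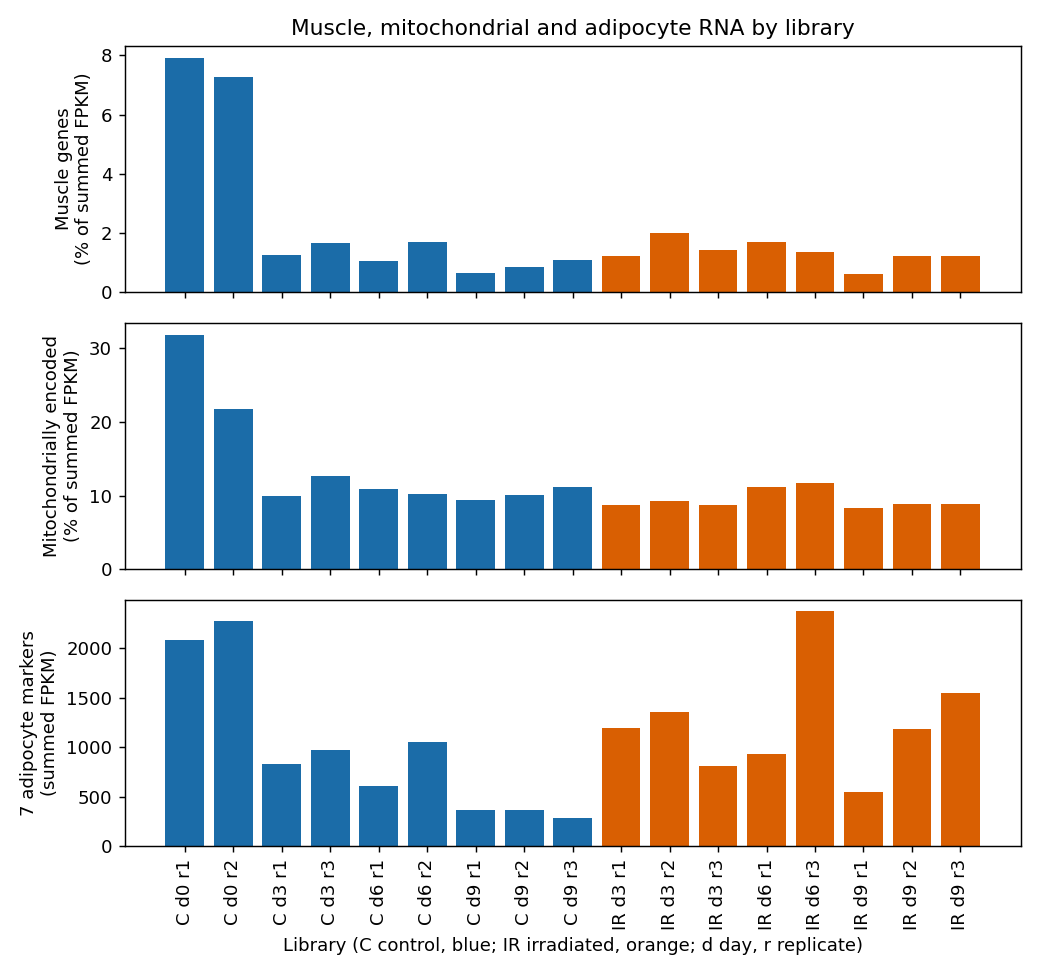
Bars show, for each of the 17 libraries, the muscle genes' share of summed FPKM (top), the share of mitochondrially encoded genes (middle) and the summed FPKM of 7 adipocyte markers (bottom), all on linear axes from 0. The 2 day-0 libraries, at 7.93% and 7.28% muscle RNA, stand above all others, which reach at most 2.002%, and their mitochondrial share is also the highest.

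The measurement of some names needs a caution. Tnnc2, fast troponin C (chr2:164777161-164779967), is one of the main proteins of fast fibres, yet its row held only 0 to 8 fragments and 0 to 0.335 FPKM, and it was not tested. Of its exon bases, 74% lie in exons of Ube2c on the opposite strand, and its troponin partners Tnnt3 and Tnni2 were at 75.4 FPKM or more in every library. Whether the overlap set this value was not tested. The second Aldoa identifier held 2 to 89 fragments and 0.0883 to 4.38 FPKM, next to an estimated 14365 fragments or more for the main one. It is counted in the tests as a row of its own. It reached 1 FPKM only at day 0 (4.38 and 2.31) and in replicate 2 of irradiated day 3 (1.15). Testing required 1 FPKM in 2 libraries, so its day-0 values brought it into the tests. For the main Aldoa row and for Mb, Actn3 and Ldb3, the deposited coordinates differ from GENCODE M21, the source of exons here. Their fragment and overlap values are therefore approximate. Exons of other genes also cover 31.9% of the exon bases of Mb, 21.9% of Atp2a1, 19.98% of Cacna1s and 15.5% of Ckm, and no source used here says how the authors assigned such fragments. The 32 tested rows are therefore 31 genes and the second Aldoa entry.

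The first comparison asks how muscle RNA in control skin changed from day 0 to the days after injury. It fell for nearly the whole set. At day 3, 30 of the 32 rows passed as lower and 0 as higher, against 12.4% and 25.8% of all 15271 tested genes. At day 6 all 32 rows passed as lower (14.2% of all genes lower, 21.1% higher), and at day 9 again all 32 (18% lower, 30.4% higher). Each change is a difference of mean log2(FPKM + 1) between groups, given with its standard error (SE), and it understates the change of low genes. A gene passed where limma's p, adjusted over all tested genes, was under 0.05. The median change of the rows was -2.45, -2.52 and -3.39 at days 3, 6 and 9, while the median over all genes was 0.16, 0.11 and 0.15. These 3 comparisons share the 2 day-0 libraries, and so they are not separate evidence. The second Aldoa entry is among the rows counted as lower on each day. Its day-0 values brought it into the tests, so its calls are no support for the fall. Both day-0 libraries lay above every one of the 15 later libraries for 31 of 31 genes. Over all tested genes that held for 12.7%. The gap was narrowest for Ryr1, whose lower day-0 value was 1.37 times its highest later value, and widest for Pvalb, at 6.47 times. Markers of other tissues moved in the same libraries. Of 7 keratinocyte genes 4 rose at control day 3 and 0 fell, and their summed level of 2472 to 4668 FPKM at day 0 and 14315 to 14844 FPKM at day 3 was mostly Krt14 (600.5 to 1099 and 10611 to 10734 FPKM), while Lor was at 478 to 1099 and 315 to 332 FPKM. The 4 Schwann cell markers summed to 158.0 to 187 FPKM at day 0 and to 24.9 to 26.0 FPKM at control day 9, where 3 of 4 passed as lower. The 7 adipocyte markers went from 2079 to 2271 FPKM at day 0 to 281 to 366 FPKM at control day 9, with 5 of 7 lower. The 6 dermal fibroblast markers went from 799 to 2670 FPKM to 7145 to 8823 FPKM, with 4 of 6 higher at day 9. The part of other tissues in the size of the fall was not tested. With FPKM rescaled to the nuclear genes the median changes were -2.61, -2.75 and -3.45.

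**Figure D2:**
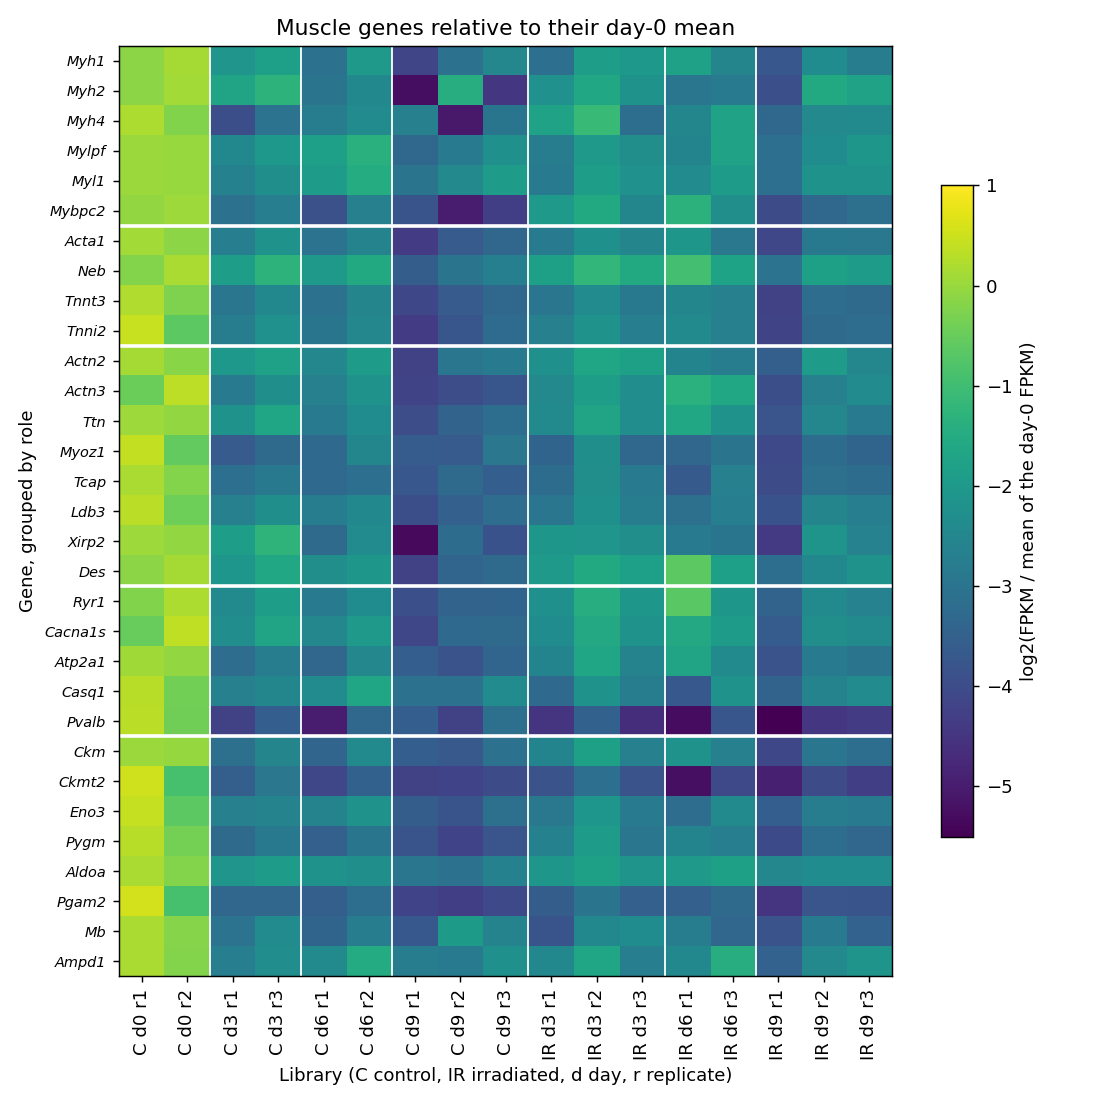
Each row is a muscle gene, grouped by role between the thick white lines, and each column a library; colour is log2 of the FPKM over the gene's mean in the 2 day-0 libraries. Both day-0 columns are the brightest in all 31 rows, and columns of irradiated and control skin of the same day are of similar shade.

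The myosin heavy chains of the thick filament were uneven between libraries. Myh1, which encodes the fast IIx myosin heavy chain (chr11:67200052-67224575), had 881 and 1041 FPKM at day 0. In control skin it then had 221 and 271 FPKM at day 3, 116 and 244 at day 6, and 54.7, 114 and 171 at day 9. Its levels in irradiated skin were 111, 259 and 237 FPKM at day 3, 281 and 164 at day 6, and 72.1, 190 and 142 at day 9. The irradiated and control libraries overlap on each day, and all lie below day 0.

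Myh4, the fastest myosin heavy chain (IIb, chr11:67238029-67260446), had 794 and 581 FPKM at day 0. Control skin had 44.7 and 84.5 FPKM at day 3, 99.9 and 134 at day 6, and 107, 20.5 and 86.8 at day 9. Irradiated skin had 204, 324 and 77.6 FPKM at day 3, 119 and 205 at day 6, and 70.1, 126 and 131 at day 9. In irradiated skin at day 3, 2 of the 3 libraries lay above both control libraries and 1 between them. Myh4 fell by 3.45 (SE 0.748, adjusted p = 0.00351) at control day 3 against day 0. Myh2, the heavy chain of the more oxidative IIa fibres (chr11:67171027-67197517), had 80.1 and 93.9 FPKM at day 0. Its control values were 26.9 and 35.6 FPKM at day 3, 10.9 and 15.8 at day 6, and 2.29, 31.7 and 3.94 at day 9. Its irradiated values were 18.9, 28.3 and 19.5 FPKM at day 3, 11.3 and 12.5 at day 6, and 5.80, 29.9 and 25.6 at day 9. Replicates of day 9 thus differ widely, by 13.8 times in control skin, the largest ratio of any muscle gene in any group. Myh2 did not pass at control day 3 against day 0 (-1.46, SE 0.886, adjusted p = 0.216).

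Set against each other, the heavy chains did not keep 1 mix. Myh4 took 45.1% and 32.6% of the summed FPKM of 6 heavy chain genes at day 0, and in control skin of day 9 it took 62.8%, 11.2% and 30.9%. Myh2 took 17.4% in the day-9 control library in which Myh4 was at 11.2%, and 1.34% and 1.40% in the other 2. At day 3, Myh4 took 14.7% and 21.1% in control skin and 60.5%, 51.3% and 22.4% in irradiated skin. At control day 6 the embryonic chain Myh3 and the perinatal chain Myh8, which mark immature or regenerating fibres, took 13.3% and 10.8% in one library and 8.54% and 9.23% in the other. In the remaining libraries Myh3 took at most 9.05% and Myh8 at most 5.20%. No test was made on these shares.

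**Figure D3:**
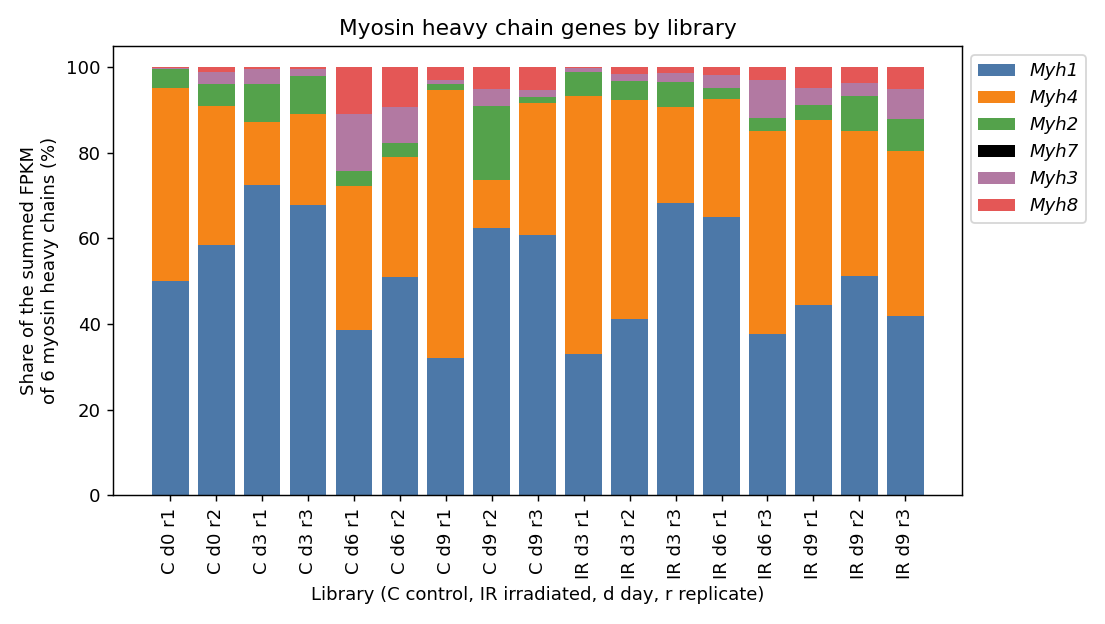
Stacked bars give each library's split of the summed FPKM of 6 myosin heavy chain genes, in percent; Myh7, the slow chain, is too small to see. The Myh4 share runs from 11.2% to 62.8% among the 3 control libraries of day 9, and Myh3 and Myh8 together are widest in the 2 control libraries of day 6.

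Mylpf and Myl1, the regulatory and essential light chains of fast myosin, were at 2707 to 2760 and 1286 to 1309 FPKM at day 0. They kept the most among the genes of the thick filament at control day 9, where Myl1 stood at 19.2% of its day-0 mean, the highest of any muscle gene there. Mybpc2, the fast myosin-binding protein C, which tunes the cross-bridges (chr7:44501699-44524656), had 214 and 229 FPKM at day 0. Control skin had 26.1 and 33.7 FPKM at day 3, 14.9 and 35.2 at day 6, and 15.7, 6.94 and 11.2 at day 9. In irradiated skin it had 55.9, 76.0 and 38.8 FPKM at day 3, 87.8 and 45.4 at day 6, and 14.0, 22.3 and 25.6 at day 9. All irradiated libraries were above all control libraries of their day at days 3 and 6, and at day 9 the lowest irradiated library lay within the control range. At control day 9 Mybpc2 stood at 5.10% of its day-0 mean, the lowest of the 31 genes, and fell by 4.24 (SE 0.426, adjusted p = 1.81e-05).

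Among the thin filament genes, Acta1 (skeletal alpha-actin, chr8:123891769-123894751) had the highest level of all. Its day-0 values were 10054 and 8582 FPKM, and those of control skin 1418 and 2040 FPKM at day 3, 1137 and 1545 at day 6, and 454, 757 and 908 at day 9. Irradiated skin had 1308, 1986 and 1589 FPKM at day 3, 2226 and 1254 at day 6, and 535, 1265 and 1248 at day 9. The arms overlap on every day. Against day 0, Acta1 in control skin fell by 2.45 (SE 0.445, adjusted p = 0.0012) at day 3, by 2.81 (SE 0.445, adjusted p = 0.0006) at day 6 and by 3.77 (SE 0.407, adjusted p = 2.56e-05) at day 9. Neb, nebulin, the ruler of thin filament length, had 58.2 and 75.1 FPKM at day 0. Control skin later had 18.0 and 27.3 FPKM at day 3, 16.5 and 22.8 at day 6, and 5.53, 8.39 and 10.2 at day 9. In irradiated skin they were 19.0, 29.2 and 22.7 FPKM at day 3, 34.5 and 20.1 at day 6, and 8.20, 19.0 and 17.7 at day 9. Neb passed at control day 3 with one of the smaller changes of the set (-1.53, SE 0.396, adjusted p = 0.00935). The fast troponins Tnnt3 and Tnni2, which hold and inhibit the filament, went from 2932 to 4050 and 1000 to 2117 FPKM at day 0 to 206 to 355 and 75.4 to 167 FPKM at control day 9.

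The Z-disc, titin and intermediate filament genes fell in 7 of 8 at control day 3 and in all 8 at days 6 and 9. Des, desmin, ties the Z-discs of neighbouring myofibrils together (chr1:75360329-75368579) and is also made in smooth muscle. It had 689 and 818 FPKM at day 0. Control skin had 177 and 250 FPKM at day 3, 155 and 182 at day 6, and 39.5, 72.0 and 78.8 at day 9. Irradiated skin had 187, 259 and 212 FPKM at day 3, 488 and 211 at day 6, and 84.2, 137 and 167 at day 9. At days 6 and 9 all irradiated values of Des lay above all control values of the day. The 7 listed smooth muscle markers summed to 390 to 482 FPKM in control and 171 to 346 FPKM in irradiated skin at day 9. Of the 6 tested, 0 passed as higher in irradiated skin and 1 as lower, against 5.38% of all genes in either direction. Their median change was -0.38. Acta2 had 339 to 419 FPKM in control and 138 to 305 FPKM in irradiated skin, and Myh11 had 6.09 to 7.54 and 6.13 to 12.03 FPKM. Both are among these 7 markers, and the part of smooth muscle in the Des values was not tested. Actn3, the alpha-actinin of fast fibres, had 453 and 784 FPKM at day 0. Its control values were 88.1 and 128 FPKM at day 3, 97.0 and 136 at day 6, and 34.2, 39.5 and 45.5 at day 9. Its irradiated values were 115, 167 and 124 FPKM at day 3, 244 and 200 at day 6, and 40.6, 97.1 and 120 at day 9. They overlap the controls at days 3 and 9 and lie above them at day 6.

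Actn2, the alpha-actinin of all striated fibres, had 246 and 203 FPKM at day 0. In control skin it had 55.1 and 65.4 FPKM at day 3, 40.1 and 59.5 at day 6, and 11.9, 29.2 and 32.2 at day 9. In irradiated skin it had 47.9, 70.2 and 64.0 FPKM at day 3, 37.6 and 32.7 at day 6, and 19.5, 59.99 and 39.6 at day 9. Unlike Actn3, its irradiated values at day 6 lay below both control values. Xirp2, a Z-disc and attachment protein that responds to load and damage, had 135 and 125 FPKM at day 0. In control skin it later had 35.7 and 53.5 FPKM at day 3, 13.7 and 25.4 at day 6, and 3.26, 14.1 and 8.90 at day 9. Irradiated libraries had 31.0, 30.3 and 26.7 FPKM at day 3, 18.6 and 16.6 at day 6, and 6.20, 29.6 and 21.1 at day 9. Xirp2 was, with Myh2, the other gene that missed the threshold at control day 3 (-1.55, SE 0.622, adjusted p = 0.0664). Xirp2 fell by 3.93 (SE 0.568, adjusted p = 0.000165) at control day 9.

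Ttn, titin, the spring that spans from the Z-disc to the middle of the sarcomere (chr2:76703980-76982547), had 37.2 and 34.5 FPKM at day 0. Control skin had 7.87 and 11.2 FPKM at day 3, 5.13 and 7.10 at day 6, and 2.30, 3.30 and 4.07 at day 9. Irradiated skin had 6.89, 11.01 and 7.23 FPKM at day 3, 11.7 and 7.94 at day 6, and 2.59, 6.42 and 5.03 at day 9. Its day-6 values do not overlap between the arms, and those of days 3 and 9 do. Myoz1, which binds calcineurin at the Z-disc of fast fibres, had 359 and 185 FPKM at day 0. Its later values were 21.8 and 28.7 FPKM at control day 3, 28.1 and 47.9 at day 6, and 22.3, 22.1 and 36.1 at day 9. Irradiated libraries had 25.7, 57.0 and 27.4 FPKM at day 3, 26.6 and 34.0 at day 6, and 16.4, 29.4 and 25.7 at day 9. Control libraries of days 3, 6 and 9 overlap for Myoz1, which fell by 3.31 (SE 0.438, adjusted p = 0.00018) by day 3. Tcap, telethonin, which caps titin at the Z-disc, had 882 and 673 FPKM at day 0. In control skin it had 89.2 and 106 FPKM at day 3, 80.2 and 88.4 at day 6, and 58.3, 81.7 and 66.3 at day 9. In irradiated skin it had 84.2, 159 and 111 FPKM at day 3, 61.6 and 121 at day 6, and 49.0, 91.0 and 85.0 at day 9. The arms overlap for Myoz1 and Tcap on every day. Ldb3, a Z-disc scaffold, ranged from 7.40 to 143 FPKM over all libraries.

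**Figure D4:**
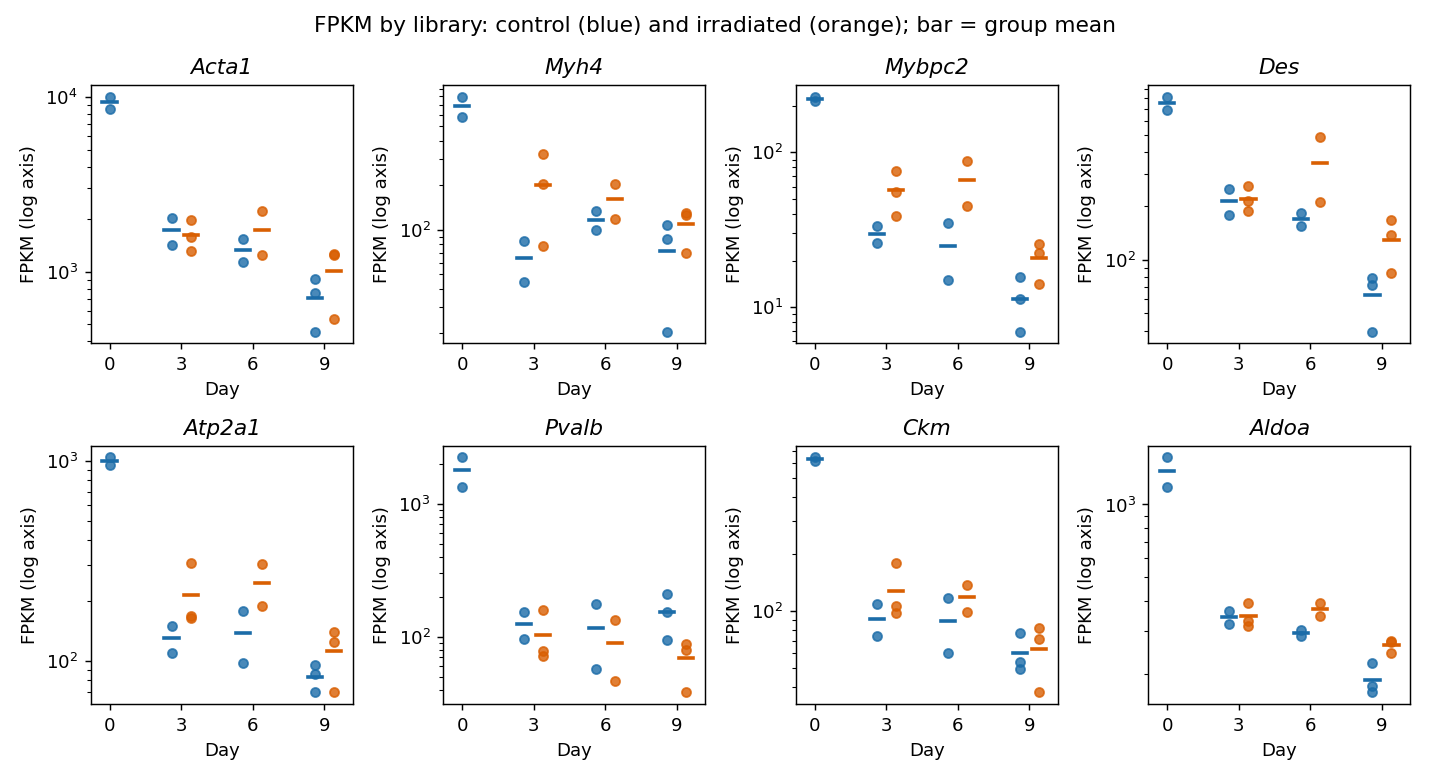
Points are single libraries, blue for control and orange for irradiated skin, at 0, 3, 6 and 9 days, and bars are group means; the FPKM axis is logarithmic and differs between the 8 genes. Day-0 points lie above all others in each panel, and irradiated points of Mybpc2 at days 3 and 6, and of Des and Aldoa at days 6 and 9, lie above the control points of the day.

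Calcium handling genes included the gene that fell most at days 3 and 6. Pvalb, parvalbumin, the calcium buffer that speeds relaxation of fast fibres (chr15:78191114-78206400), had 2233 and 1348 FPKM at day 0. Control skin had 95.8 and 152 FPKM at day 3, 56.9 and 177 at day 6, and 153, 95.1 and 208 at day 9. Irradiated skin had 78.1, 159 and 72.0 FPKM at day 3, 46.3 and 132 at day 6, and 38.0, 80.0 and 87.6 at day 9. Its control values at day 9 overlap those of days 3 and 6, and its irradiated values at day 9 lay below all 3 control values. Pvalb fell by 3.83 (SE 0.653, adjusted p = 0.000815) at control day 3 and by 4.10 (SE 0.653, adjusted p = 0.000622) at day 6 against day 0.

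Atp2a1, SERCA1, the pump that returns calcium to the reticulum of fast fibres (chr7:126445858-126463108), had 1040 and 953 FPKM at day 0. Its control values were 110 and 150 FPKM at day 3, 97.2 and 178 at day 6, and 85.3, 69.3 and 95.2 at day 9. Its irradiated values were 168, 309 and 164 FPKM at day 3, 303 and 188 at day 6, and 70.0, 140 and 124 at day 9. At days 3 and 6 the irradiated libraries were all above the controls. The calcium release channel gene Ryr1 and the voltage sensor gene Cacna1s, which together turn the action potential into calcium release, ranged from 2.52 to 43.4 and from 1.89 to 42.2 FPKM. Casq1, calsequestrin, which stores calcium in the reticulum, ranged from 21.2 to 345 FPKM. At day 0 Cacna1s and Ryr1 were higher in replicate 2, with replicate 1 at 0.543 and 0.749 of it, whereas Casq1 and Pvalb were higher in replicate 1, by 1.61 and 1.66 times.

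Energy supply genes were all lower at every later day of control skin. Ckm, the cytosolic muscle creatine kinase, had 645 and 615 FPKM at day 0. Control skin had 74.1 and 109 FPKM at day 3, 60.3 and 118 at day 6, and 54.01, 49.4 and 76.5 at day 9. Irradiated skin had 107, 179 and 98.4 FPKM at day 3, 138 and 98.8 at day 6, and 37.3, 81.3 and 71.1 at day 9. The arms overlap on each day for this gene. Its partner in mitochondria, Ckmt2, had 204 and 76.2 FPKM at day 0, with control values of 12.1 and 18.5 FPKM at day 3, 8.04 and 12.6 at day 6, and 7.35, 7.70 and 8.75 at day 9. Ckmt2 in irradiated skin had 9.77, 16.0 and 9.77 FPKM at day 3, 3.75 and 8.42 at day 6, and 4.57, 8.78 and 7.11 at day 9. Its day-0 libraries differ by 2.68 times, more than any gene but Pgam2.

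Pgam2, the muscle phosphoglycerate mutase of glycolysis, had 1055 and 385 FPKM at day 0. Controls had 70.4 and 70.4 FPKM at day 3, 62.0 and 80.9 at day 6, and 39.2, 36.7 and 42.8 at day 9. After irradiation it had 59.6, 89.95 and 63.6 FPKM at day 3, 62.9 and 75.0 at day 6, and 31.8, 51.8 and 51.0 at day 9. Replicates of control day 9 were the closest of any gene there, and Pgam2 fell by 3.98 (SE 0.344, adjusted p = 7.97e-06) between days 0 and 9. Pygm, muscle glycogen phosphorylase, which releases glucose units from glycogen, had 485 and 307 FPKM at day 0. In control skin it had 41.6 and 54.6 FPKM at day 3, 34.6 and 50.6 at day 6, and 28.2, 21.5 and 28.8 at day 9. In irradiated skin it had 63.4, 106 and 51.3 FPKM at day 3, 66.7 and 59.7 at day 6, and 23.9, 44.7 and 38.6 at day 9. At day 6 both irradiated values of Pygm were above both controls. Aldoa, the aldolase of muscle, which many other cells also make (chr7:126795234-126808905), had 1565 and 1184 FPKM at day 0. Control skin had 320 and 363 FPKM at day 3, 303 and 286 at day 6, and 178, 167 and 221 at day 9. Irradiated skin had 329, 393 and 313 FPKM at day 3, 346 and 390 at day 6, and 242, 269 and 272 at day 9. Replicates of Aldoa were close, and irradiated values exceeded all controls at days 6 and 9.

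Mb, myoglobin, which stores oxygen in fibres, had 1017 and 796 FPKM at day 0. Its control values were 112 and 176 FPKM at day 3, 85.9 and 133 at day 6, and 69.7, 232 and 149 at day 9. Its irradiated values were 64.8, 163 and 179 FPKM at day 3, 135 and 89.1 at day 6, and 63.6, 127 and 83.3 at day 9. The highest control library of day 9 for Mb was replicate 2, which also had the highest Myh2 and the lowest Myh4 of its group. Eno3, the muscle enolase, ranged from 58.3 to 1116 FPKM, and Ampd1, the muscle AMP deaminase, from 2.54 to 31.98 FPKM. At day 0, 8 of 8 energy supply genes were higher in replicate 1, by 1.05 (Ckm) to 2.74 (Pgam2) times.

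By role, the genes at control day 9 kept a median of 13.2% of the day-0 mean for the thick filament, 7.84% for the thin filament, 8.84% for Z-disc and titin, 8.502% for calcium handling and 9.28% for energy supply. Over all 31 genes the median was 17.7% at control day 3, 16.4% at day 6 and 8.87% at day 9, and 20.9%, 18.7% and 13.1% at the same days in irradiated skin. In some groups the libraries were ordered alike across genes, and in others they were not. In control day 3, replicate 3 was above replicate 1 in 31 of 31 genes, and in control day 6 replicate 2 was above replicate 1 in 30. Irradiated day 3 had its highest value in replicate 2 for 29 genes, and irradiated day 9 its lowest value in replicate 1 for 31. The other groups were split: replicate 1 was the higher at day 0 for 23 genes and at irradiated day 6 for 17, and control day 9 had its highest value in replicate 3 for 25 genes and its lowest in replicate 1 for 19. The median ratio of the highest to the lowest replicate ran from 1.32 at day 0 to 2.06 at irradiated day 9.

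The second comparison asks whether muscle RNA went on falling from day 3 to day 9. In control skin 12 of the 32 rows passed as lower at day 9 against day 3, and none as higher, against 10.2% of all genes that passed as lower and 8.02% as higher. The median change of the rows was -0.86, against -0.07 over all genes. Among those that passed, the largest falls were those of Xirp2 (-2.38, SE 0.568, adjusted p = 0.0149), Des (-1.77, SE 0.383, adjusted p = 0.00942), Actn3 (-1.41, SE 0.391, adjusted p = 0.0280), Neb (-1.39, SE 0.362, adjusted p = 0.0210), Mybpc2 (-1.38, SE 0.426, adjusted p = 0.0425) and Actn2 (-1.38, SE 0.439, adjusted p = 0.0476). Acta1, Ttn, Tnni2, Cacna1s, Ryr1 and Aldoa also passed. Myh2 had a change of -1.98 (SE 0.808, adjusted p = 0.107), which did not pass. By role these were 5 of 8 genes of the Z-disc and titin, 3 of 4 of the thin filament, 2 of 5 of calcium handling, 1 of 6 of the thick filament and, for energy supply, 1 of 9 rows. For 21 of the 32 rows every day-9 library was below both day-3 libraries, which held for 34.9% of all genes. The count fell to 0 without replicate 3 of control day 3, and to 5 without replicate 1 of control day 3, replicate 1 of control day 9 or replicate 2 of control day 9. Markers of other tissues moved in the same comparison: 4 of 7 adipocyte and 3 of 7 keratinocyte genes passed as lower, and 4 of 6 dermal fibroblast and 4 of 4 hair follicle genes as higher. Their part in the muscle change was not tested. The count of muscle rows was 5 with no filter on low values, 6 with FPKM rescaled to nuclear genes and 22 with array quality weights.

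In irradiated skin no muscle gene passed between days 3 and 9 by limma. That compares with 0.963% of all genes in either direction. An unadjusted p under 0.05 was found for 11 of the 32 rows, against 2472 of all 15271 genes, a lower share. The median change was -0.67, and it was -0.32 without replicate 1 of irradiated day 9, -0.45 without replicate 2 of irradiated day 3 and -0.31 with array quality weights. The changes nearest to the threshold were those of Mybpc2 (-1.41, SE 0.381, adjusted p = 0.0955) and Pygm (-1.002, SE 0.293, adjusted p = 0.116). Among the 32 rows 14 had all day-9 libraries below all day-3 libraries, against 17.7% of all genes. The difference between the arms in the change from day 3 to day 9 was not tested on its own. limma's F test for a difference of the arms that varies over days 3, 6 and 9 called 0 of the 32 rows, against 0.0131% of all genes called. At an unadjusted p under 0.05 it had 0 of the rows and 2337 of all genes.

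The third comparison asks how irradiated and control skin differed on the same days. Averaged over days 3, 6 and 9, 1 of the 32 rows passed, as higher in irradiated skin, against 4.36% of all genes that passed as higher, and 1 of 32 is a share near that background. The gene was Mybpc2, at 1.04 (SE 0.246, adjusted p = 0.0250). Its means ± SD were 56.9 ± 18.6 (n = 3) against 29.9 ± 5.37 FPKM (n = 2) at day 3, 66.6 ± 30.01 (n = 2) against 25.0 ± 14.3 (n = 2) at day 6 and 20.7 ± 5.97 (n = 3) against 11.3 ± 4.40 (n = 3) at day 9, irradiated first. Mybpc2 missed the threshold without replicate 1 of control day 3 (adjusted p = 0.0822), replicate 3 of control day 3 (0.0524), replicate 1 of control day 6 (0.0615), replicate 1 of irradiated day 6 (0.0736) or replicate 3 of irradiated day 9 (0.0537), and also with no filter (0.0514) or array quality weights (0.0592).

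The median change of the 32 rows in the averaged comparison was 0.13, against -0.01 over all genes, and 25 of the 32 were above 0, as were 47.4% of all genes. None passed as lower, against 2.57% of all genes, and 8 of 32 rows had an unadjusted p under 0.05, as had 3464 of all 15271 genes, a like share. With one library left out the median ranged from 0.04 (without replicate 1 of control day 9) to 0.24 (without replicate 2 of control day 6), and it was 0.07 with quantile normalization and 0.32 with array quality weights. Below the threshold came Actn3 (0.74, SE 0.226, adjusted p = 0.0706), Ryr1 (0.65, SE 0.210, adjusted p = 0.0870), Des (0.67, SE 0.221, adjusted p = 0.0937), Aldoa (0.27, SE 0.0900, adjusted p = 0.0959) and Atp2a1 (0.63, SE 0.212, adjusted p = 0.0965). Without replicate 1 of irradiated day 9, the library lowest in all 31 genes of its group, Actn3 had an adjusted p of 0.00797. Without replicate 3 of irradiated day 6, Ryr1 had 0.0124 and Des 0.0212.

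On single days no muscle gene passed by limma. Over all genes, 1.85% passed in either direction at day 3, 0.275% at day 6 and 5.38% at day 9. Rows with an unadjusted p under 0.05 numbered 0, 4 and 5 on these days, against 1741, 2345 and 3470 of all 15271 genes, a lower share than among all genes on each day. The median changes of the rows were 0.00, 0.12 and 0.38. These medians changed sign at day 3 (-0.07 to 0.04 over the alternative settings, and -0.16 to 0.24 with one library left out). With one library left out they also changed sign at day 6 (-0.10 to 0.42), and at day 9 they ranged from 0.20 to 0.74. At day 3 the irradiated libraries were all higher than the controls for Mybpc2 and Atp2a1 (2 of 32 rows, against 15.9% of all genes) and all lower for Xirp2 (1 row, against 25.1%). At day 6 they were all higher for 9 rows (19.8% of all genes), namely Mybpc2, Actn3, Ttn, Des, Ryr1, Cacna1s, Atp2a1, Pygm and Aldoa, and all lower for Actn2 (16% of all genes). At day 9 they were all higher for Des, Aldoa and the second Aldoa entry (3 rows, against 16.8% of all genes) and all lower for Pvalb (17.2%).

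The day-9 changes closest to passing were those of Aldoa (0.48, SE 0.139, adjusted p = 0.0665), Des (1.02, SE 0.342, adjusted p = 0.0991) and Actn3 (0.97, SE 0.349, adjusted p = 0.124). Pvalb was at -1.16 (SE 0.533, adjusted p = 0.222), opposite in sign to these. With array quality weights, which give less weight to libraries far from their group, 19 of the 32 rows passed at day 9, when 5610 of all 15271 genes did so, against 822 without the weights. Among the 19 were Aldoa (0.59, adjusted p = 0.000393), Des (1.53, adjusted p = 0.000657) and Acta1 (1.11, adjusted p = 0.00494). Adipocyte markers, from the fat that lies beside this muscle, moved in the same libraries. The summed level of the 7 adipocyte genes at day 9 was 281 to 366 FPKM in control and 551 to 1551 FPKM in irradiated skin, with 3 of 7 genes passing as higher and Adipoq at 2.53 (SE 0.506, adjusted p = 0.0179). In irradiated skin of day 9 the lowest adipocyte sum, 551 FPKM, was in replicate 1, the library with the lowest muscle values. The highest sum there, 1551 FPKM, was in replicate 3, while replicate 2 had the highest value for 20 of 31 muscle genes. In control skin of day 9 the lowest sum, 281 FPKM, was in replicate 3, which had the highest value for 25 of 31 muscle genes. The part of adipose tissue in the muscle differences was not tested.

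**Figure D5:**
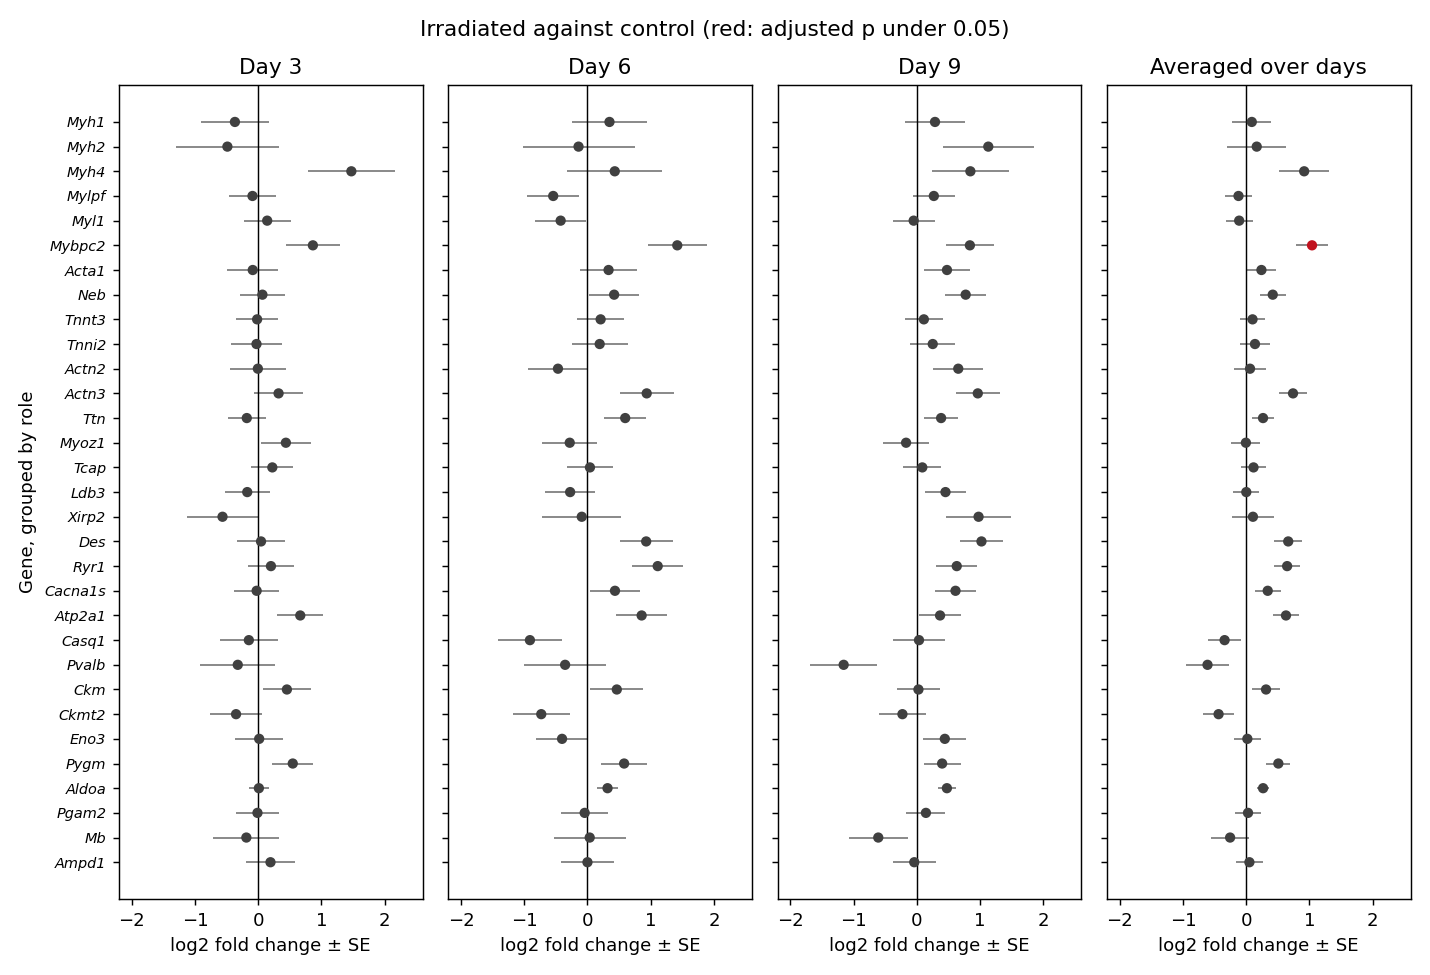
Points are log2 fold changes of FPKM + 1, irradiated against control, for each of 31 muscle genes at day 3, day 6, day 9 and averaged over these days; bars are 1 SE and red marks an adjusted p under 0.05. Mybpc2 in the averaged panel (1.04) is the one red point, and Des, Actn3 and Aldoa lie right of 0 at days 6 and 9 while Pvalb lies left of it on all days.

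Other genes of the same system were in most lists also lower against day 0. The lists come from general knowledge but were chosen with earlier results of these data known, so they are not independent support. Over all tested genes, 12.4% were called lower at control day 3, 14.2% at day 6 and 18% at day 9. The shares called higher were 25.8%, 21.1% and 30.4%. Of 25 other sarcomere genes, 22 were called lower at control day 3, 24 at day 6 and 25 at day 9. Among 12 genes of excitation-contraction coupling 12, 11 and 12 fell, and 13 of 14 energy and transport genes fell on each day. Pdk4, which turns pyruvate away from oxidation, fell by 5.97 (SE 0.495, adjusted p = 6.51e-06) at day 9, from 187 and 378 FPKM at day 0 to 2.82 to 3.60 FPKM. All 7 genes of the dystrophin complex and 7 of 7 tested adult muscle regulators fell on each day. Of 8 neuromuscular junction genes 4, 4 and 7 fell. The 7 tested regeneration genes had none called at days 3 and 6 and 3 called lower at day 9, Myog among them (-2.48, SE 0.545, adjusted p = 0.00266). Of 6 tested slow-twitch genes 1 rose and 1 fell on each day, Atp2a2 (1.05, SE 0.225, adjusted p = 0.00319 at day 3), a calcium pump that non-muscle cells also make, and Myoz2 (-1.89, SE 0.514, adjusted p = 0.0122 at day 3). Such slow-twitch counts are near the shares over all genes and are not a result about that list.

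Between irradiated and control skin averaged over days, the same lists gave 1 call among 12 tested genes of excitation-contraction coupling, 1 among 14 of energy and transport and 0 in the other lists, beside the 4.36% of all genes called higher. These are 2 single genes and not a result about the lists. Sln, sarcolipin, a small inhibitor of the calcium pump, rose by 1.53 (SE 0.369, adjusted p = 0.0277). It had 10.6 to 11.1 FPKM in control and 15.7 to 48.5 in irradiated skin at day 3, 17.5 to 38.9 and 50.02 to 89.6 at day 6, and 5.18 to 10.6 and 23.9 to 37.9 at day 9, so the arms do not overlap within a day. Pdk4 rose by 1.10 (SE 0.286, adjusted p = 0.0382), with 19.6 to 24.6 against 28.9 to 55.5 FPKM at day 3, 6.58 to 9.57 against 16.1 to 75.2 at day 6 and 2.82 to 3.60 against 4.55 to 5.98 at day 9. The irradiated libraries of Pdk4 likewise lay above the controls of the same day. On its own day, that order held for 15.9%, 19.8% and 16.8% of all genes at days 3, 6 and 9. Pdk4 is also made in other tissues. At day 9 Smtnl2, of the sarcomere list, was higher by 0.70 (SE 0.167, adjusted p = 0.0351), and no gene of these lists passed at day 3 or 6. From irradiated day 3 to irradiated day 9, Trim63 (a ubiquitin ligase of the sarcomere, -2.67, SE 0.477, adjusted p = 0.0280), Pdk4 (-2.66, SE 0.442, adjusted p = 0.0230), Adssl1 (-1.29, SE 0.262, adjusted p = 0.0426) and Ucp3 (-1.29, SE 0.215, adjusted p = 0.0232) fell.

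The 2 day-0 libraries differed in the immature genes as well. Myh3 was at 1.41 and 49.6 FPKM in replicates 1 and 2, Myog, the factor that starts fibre differentiation, at 18.3 and 94.3, and Chrna1, a receptor subunit of the nerve junction, at 3.90 and 35.2. The 9 regeneration genes summed to 40.1 FPKM in replicate 1 and 264 FPKM in replicate 2, against 122 to 142 FPKM at control day 6 and 13.3 to 38.2 FPKM at control day 9. Every comparison with day 0 rests on these 2 libraries. When each library of the compared groups was left out in turn, 27 to 29 rows passed at day 3, 25 to 31 at day 6 and 32 at day 9.

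Outside the set, the protein-coding genes whose pattern over the 17 libraries was closest to the median of the muscle genes included Tmem38a, Stac3, Trdn, Fem1a, Pfkm, Myom1, Ppp1r3a, Tpm2 and Mlip. Likeness was the mean absolute difference of standardised log2 values, in SD, and was 0.116 for Tmem38a and 0.159 for Mlip. Within the set it ran from 0.162 for Pygm and 0.163 for Tcap to 0.571 for Myh2, with Xirp2 at 0.444, Myh4 at 0.434 and Des at 0.406. The points share the same libraries, and this is a description with no test.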

How the data were processed

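The authors deposited 1 table of FPKM values for 34140 genes in 17 paired-end Smart-Seq2 libraries. HISAT2 2.2.1 and mm10 are named per the submitters' processing notes. The counting tool was not given in the sources used here. Deposited values were turned into log2(FPKM + 1), keeping the 15271 genes that reached an FPKM of 1 in 2 or more libraries. limma 3.58.1 (R 4.3.3, limma-trend) was fitted with 1 mean per group over all 17 libraries, and p-values were adjusted over all tested genes by Benjamini and Hochberg (threshold 0.05) in each of 10 comparisons. The fit was tested on simulated data with large changes placed at day 0 only and no shift shared by the genes of a library. That test does not cover small differences between irradiated and control skin. FPKM times GENCODE M21 exon length gave whole fragments within 0.01 for 29 of the 33 rows, and limma-voom on them was an alternative chosen after seeing the data. Depth was 25440773 to 30797409 fragments. A fixed rule named all members by role, gave 11 genes and up to 6 passing members per comparison in full, and summarised the rest. Members and lists were chosen with earlier results of these data known. The alternatives were other pseudocounts, filters, scalings, samples in the fit, a replicate block, array quality weights and each library left out. A gene of the likeness list is not reported here.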

Additional observations from a re-analysis of the deposited data

How the results depend on the processing

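The fall of the muscle genes against day 0 kept its direction and similar counts under the 11 alternatives and with each library left out: 26 to 32 rows (27 to 29 without one library) at control day 3, 23 to 32 (25 to 31) at day 6 and 31 to 33 (32) at day 9. Rescaling to the median of ratios moved the median over all genes at control day 3 from 0.16 to -0.01, and that of the muscle genes from -2.45 to -2.68. The single call between irradiated and control skin averaged over days became 0 when low values were not filtered, and 2 with median-of-ratios scaling or array quality weights, and 0 to 3 with one library left out. At day 6 it was 0 to 1 and at day 9 0 to 1 without one library, and 19 at day 9 with array quality weights. The same weights gave 1 row for the difference between days and 2 for irradiated day 9 against day 3. The 12 calls of control day 9 against day 3 became 5 with no filter, 6 with FPKM rescaled to nuclear genes, 22 with array quality weights and 0 to 10 without one library. limma-voom on recovered fragments called 1 row in the averaged comparison, 30, 31 and 32 against day 0 at days 3, 6 and 9, and 11 in control day 9 against day 3. Array quality weights gave 26 rows at control day 3 and 23 at day 6 against day 0, with Myh4 (adjusted p = 0.0512), Mb (0.0608) and, at day 6, Mylpf (0.0860) among those that missed the threshold. The cause of these shifts was not tested. Of 1195 single-gene values under alternatives, over 72 pairs of gene and comparison, 1095 kept their side of the threshold, 76 lost it, 24 gained it and 0 changed sign. The 72 pairs are those printed with a test, and many were picked by their change or p-value in these same fits. The tally therefore does not describe the other members.

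Replicate numbers are shared between groups, but the labels do not say that they pair libraries, and residuals of same-numbered control and irradiated libraries correlated across genes from -0.122 to 0.298. With a replicate block the averaged comparison called 2 rows rather than 1, Actn3 passing (0.72, adjusted p = 0.0379). In control day 9 against day 3 the block gave 13 rows rather than 12, with Mybpc2 (adjusted p = 0.0562) and Tnni2 (0.0549) among the calls lost and Myh2 (-2.35, adjusted p = 0.0351) among those gained. Groups hold 2 or 3 libraries, which limits the precision of every difference.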
